A study of Homo sapiens with 14 samples.

Results

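The HOX genes were followed here through the peak lists of a chromatin immunoprecipitation and sequencing (ChIP-seq) experiment on human embryonic stem cells (hESCs). The members are 38 HOX genes of the 4 clusters, taken by name out of the 20033 protein-coding genes of the GENCODE 44 annotation on chromosomes 1 to 22, X and Y. HOXA has 10 of them, HOXB 10, HOXC 9 and HOXD 9, and every gene was found in the annotation. A promoter peak is a peak that shares at least 1 base with the stretch within 1 kb of any annotated transcript start of the gene, and a cluster window runs from the first to the last member with 50 kb added on each side. All coordinates are hg38.

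The cells were WIBR3, an established hESC line. They were held either in conventional medium, as primed hESCs that resemble the epiblast around implantation, or in 5i/L/A medium, as naïve hESCs obtained by resetting primed cells of that line towards the state of the blastocyst. The proteins pulled down were BRG1 (SMARCA4) or BRM (SMARCA2), of which each BAF complex holds 1 as its ATPase, BAF155 (SMARCC1), a subunit of the core of BAF, and SOX2, a transcription factor of pluripotent and neural cells. BAF is a remodeller that moves nucleosomes. The labels name no mutation, both states come from 1 line on mouse feeder cells, and the peak lists hold no expression with which the labelled state could be checked. Each antibody and state gave 1 library, except SOX2 with 2 libraries per state.

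HOX genes encode homeodomain transcription factors that give cells of the embryo their position along the head-to-tail axis. They lie in clusters in the order in which they act, so the 3′ genes (paralog groups 1 to 4, here called anterior) are switched on early and towards the head, and the 5′ genes (groups 9 to 13, posterior) late and towards the tail, with the central groups 5 to 8 between them. In pluripotent cells the clusters are known as broad Polycomb domains that carry activating and repressive histone marks together, and they are opened by retinoic acid, WNT and FGF signals. BAF complexes act against Polycomb at many such promoters. MicroRNA genes of the miR-10 and miR-196 families sit inside the clusters and act on HOX transcripts.

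The places that the SOX2 results turn on are shown first, as the hg38 sequence of the plus strand within 40 bases of the summit that the peak caller gave. Capitals mark the SOX core, written CATTGT or CTTTGT on either strand, together with the neighbouring letters where the core is followed by any base and ATG. The first is the HOXB1 promoter, at chr17:48531104-48531184.
HOXB1 promoter: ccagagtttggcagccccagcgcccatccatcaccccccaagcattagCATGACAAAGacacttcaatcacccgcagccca
The next lies 3′ of HOXB13, at chr17:48719968-48720048, and another 3′ of HOXD1, at chr2:176192502-176192582.
3′ of HOXB13: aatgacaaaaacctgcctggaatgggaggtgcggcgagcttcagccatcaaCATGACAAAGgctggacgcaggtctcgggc
3′ of HOXD1: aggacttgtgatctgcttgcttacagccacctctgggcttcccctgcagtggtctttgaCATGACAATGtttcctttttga
The summit between HOXD13 and HOXD12, at chr2:176097213-176097293, holds a core without that neighbour.
5′ of HOXD12: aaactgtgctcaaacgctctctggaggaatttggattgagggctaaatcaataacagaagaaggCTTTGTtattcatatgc
The strongest SOX2 peak of the clusters, 3′ of HOXB1 at chr17:48520848-48520928, has neither within these letters.
3′ of HOXB1: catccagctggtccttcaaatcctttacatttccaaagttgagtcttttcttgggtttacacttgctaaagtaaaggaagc
For HOXB1 the RefSeq promoter (GRCh38.p14, chr17:48530962-48531261, minus strand, running 250 bases before to 50 after the start) shows where the core sits on the gene's own strand.
HOXB1 promoter, gene strand: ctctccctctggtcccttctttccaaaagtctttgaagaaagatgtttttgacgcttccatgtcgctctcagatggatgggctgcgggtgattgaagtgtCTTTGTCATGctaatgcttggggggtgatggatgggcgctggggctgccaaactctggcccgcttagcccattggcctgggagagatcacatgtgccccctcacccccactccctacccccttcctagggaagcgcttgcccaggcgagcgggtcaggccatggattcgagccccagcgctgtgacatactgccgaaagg
The highest naïve peaks of HOXA lie at the 5′ end of the microRNA gene MIR196B next to HOXA9. Its main product and that of MIR196A1 and MIR196A2 in HOXB and HOXC share the seed, bases 2 to 8, in capitals (RefSeq, GRCh38.p14).
miR-196b-5p: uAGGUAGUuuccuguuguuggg
miR-196a-5p: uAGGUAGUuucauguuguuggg

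The lists differ in length, which bears on every count below. They held 57884 peaks for naïve BRG1, 62338 for naïve BAF155, 17413 for naïve BRM, 15611 for primed BRG1, 58352 for primed BAF155 and 167 for primed BRM. SOX2 had 1940 peaks in naïve and 9290 in primed hESCs, and the lists of its 2 libraries per state held the same coordinates, so each pair was counted as 1 sample. With 1 list per group no comparison has a replicate check, no test between groups was possible and no p-value is given. Intervals are 95% exact binomial (Clopper-Pearson) intervals that cover counting error alone, and they are too narrow because 12 of the 38 genes have promoter stretches that touch those of another member. Read depth was not used here, so a place without a peak may hold protein below what the peak caller required. Fold means fold enrichment over the input as that caller gave it.

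Most HOX promoters had a BAF call in naïve hESCs. In primed hESCs 25 of the 38 genes had a BAF155 call and 0 had a BRG1 call. In the naïve lists 32 of the 38 genes had a promoter BRG1 peak (84.2%, interval 68.7% to 94.0%), against 66.8% of all protein-coding genes, and 29 had a BAF155 peak (76.3%, 59.8% to 88.6%), against 67.0%. In the primed lists 25 had a BAF155 peak (65.8%, 48.6% to 80.4%), against 72.7% of all genes, and 0 of the 38 had a BRG1 peak (0 to 9.25%), against 33.8%. BRM was called at 7 genes in naïve cells (18.4%, 7.74% to 34.3%), against 22.6%, and at 0 in primed cells, against 0.105%. SOX2 was called at 0 genes in naïve cells, against 0.659%, and at 2 in primed cells (5.26%, 0.644% to 17.7%), against 5.62%. The naïve BRG1 interval lies above the share of all genes, the primed BRG1 interval ends below it, and the other intervals include it.

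**Figure D1:**
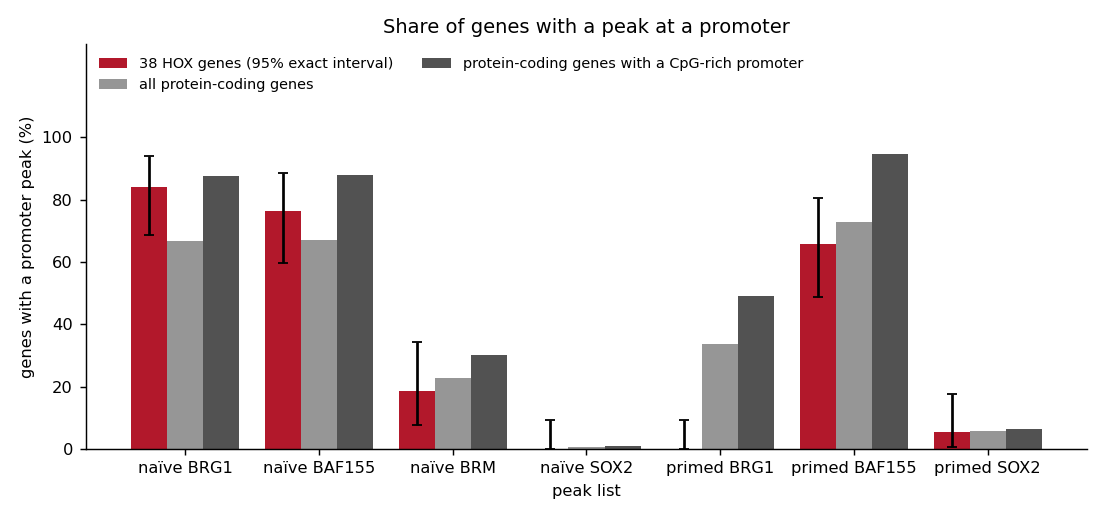
Percent of genes with a promoter peak in each of 7 lists, for the 38 HOX genes (red, with 95% exact binomial intervals), all 20033 protein-coding genes (light grey) and those with a CpG-rich promoter (dark grey). The red bar of primed BRG1 is at 0 while the grey bars stand at 33.8% and 49.0%. The other red bars lie within 20 points of the light grey ones.

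CpG-rich promoters often carry BAF, so the same shares were taken among them. A promoter was called CpG-rich where the 1000 bases around the canonical start had at least 55% GC and an observed over expected CpG ratio of at least 0.65, which held for 26 HOX genes and for 56.5% of all genes. Naïve BRG1 was called at 25 of the 26 and at 87.5% of all CpG-rich genes, naïve BAF155 at 22 and 87.9%, and naïve BRM at 6 and 30.0%. Primed BAF155 was called at 20 of the 26 and at 94.7%, primed SOX2 at 1 and 6.38%, and primed BRG1 at 0 of the 26 and at 49.0%. With 26 genes and no interval taken, the naïve BRG1, BAF155 and BRM counts lay too close to these shares for a direction to be read. The primed BAF155 and primed BRG1 counts stood lower. The median HOX promoter had 59.7% GC and a CpG ratio of 0.790, against 61.3% and 0.725 over all genes.

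The calls at HOX promoters were of low to middling fold. The highest promoter fold of a gene ran from 2.5 to 4.34 for naïve BRG1 (median 3.10, against 2.96 over all genes with a peak), from 2.33 to 3.89 for naïve BAF155 (median 2.83, against 2.92) and from 2.63 to 4.36 for primed BAF155 (median 3.12, against 3.35). Most of them therefore depend on the caller's threshold. Peaks with a −log10 q of at least 3 were left at 8 of the 38 genes for naïve BRG1, against 22.9% of all genes, at 7 for naïve BAF155, against 25.3%, and at 7 for primed BAF155, against 40.9%. The naïve shares were then close to those of all genes. Primed BRG1 stayed at 0 of the 38, against 6.03% of all genes, which its interval of 0 to 9.25% includes.

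**Figure D2:**
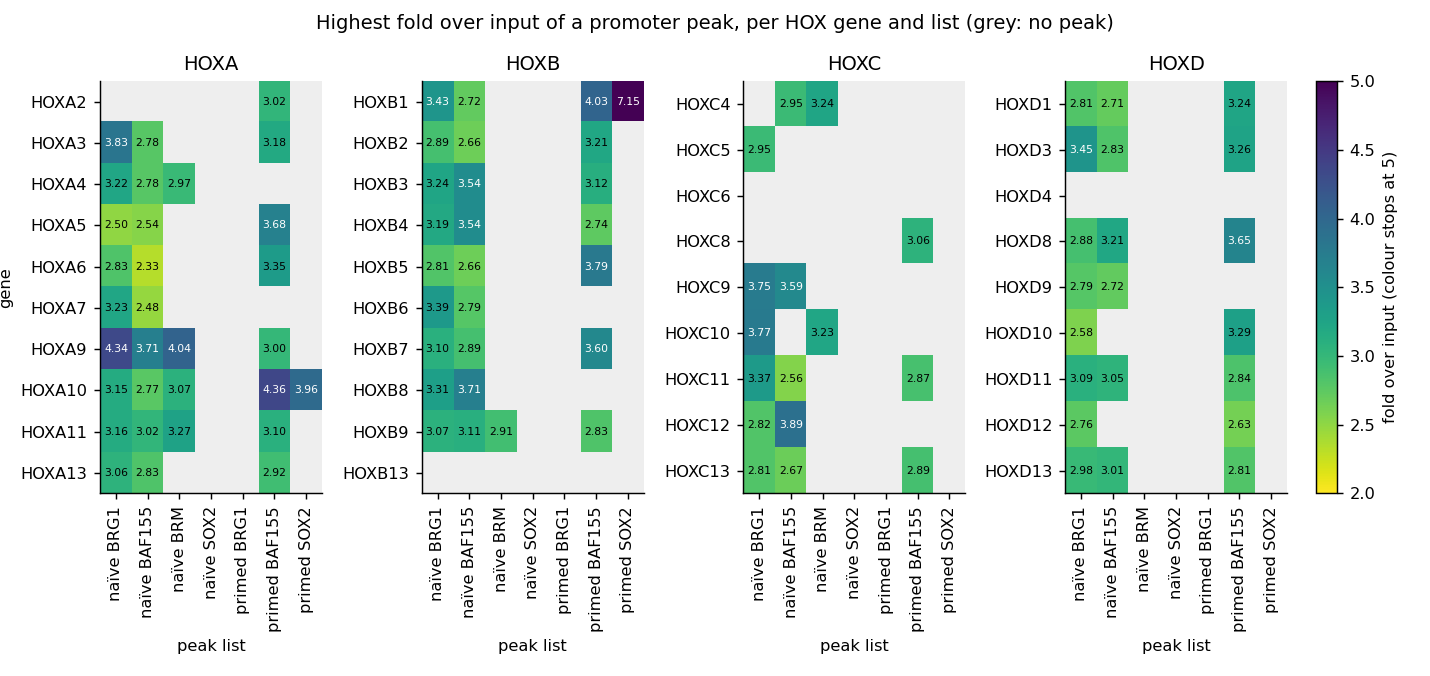
Highest fold over input of a promoter peak for each of the 38 HOX genes (rows, by cluster) in each of 7 lists (columns), printed and coloured on a scale that stops at 5, with grey for no peak. The primed BRG1 and naïve SOX2 columns are grey throughout, HOXA9 holds the highest naïve BRG1 fold (4.34), and HOXB1 and HOXA10 hold the SOX2 folds (7.15 and 3.96).

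At the single genes, naïve BAF was read through BRG1 or BAF155. A promoter BAF peak was present in both states at 23 HOX genes (60.5%, against 66.5% of all genes), in naïve cells alone at 10 (26.3%, against 6.48%), in primed cells alone at 2 (5.26%, against 6.34%) and in neither at 3 (7.89%, against 20.7%). The interval of the naïve-only share, 13.4% to 43.1%, lies above the share of all genes. Cutting the lists of each antibody to an equal number of peaks of highest fold left 12 HOX genes with naïve BRG1 (19.3% of all genes) and 0 with primed BRG1 (33.8%), and it raised the primed-only genes to 5. The class called in both states pairs naïve BRG1 or BAF155 with primed BAF155. It fell to 0 genes with BRG1 alone, with 32 in naïve only, and to 0 with both subunits required, with 28 in naïve only. A fold of at least 4 also left 0 genes in it, as did a −log10 q of 3 or more. The classes under these alternatives were counted for the HOX genes alone, so no share of all genes stands beside them. Over all genes naïve BRG1 was called at 66.8% and primed BRG1, the shorter list, at 33.8%. Of all genes with naïve BRG1, 47.8% also had primed BRG1.

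The naïve-only genes were HOXA4, HOXA7, HOXB6, HOXB8, HOXC4, HOXC5, HOXC9, HOXC10, HOXC12 and HOXD9, so 5 of them came from the 9 genes of HOXC. HOXC9, a posterior gene used in the trunk, had a naïve BRG1 fold of 3.75 and a BAF155 fold of 3.59. HOXC10, which acts at lumbar levels, had a BRG1 fold of 3.77 and a BRM fold of 3.23 but no BAF155 peak. HOXC12 had the highest naïve BAF155 fold of any HOX promoter, 3.89, with a BRG1 fold of 2.82. These HOXC calls are thus among the strongest naïve ones of the family.

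HOXC4 and HOXC5 had single calls, BAF155 at a fold of 2.95 with BRM at 3.24 for HOXC4, and BRG1 at 2.95 for HOXC5. The HOXC4 peaks reach the window only with their edge, since their midpoints lie 1040 and 1165 bases past the nearest start. In HOXA, the anterior gene HOXA4 had naïve BRG1 at a fold of 3.22, BAF155 at 2.78 and BRM at 2.97, and HOXA7 had BRG1 at 3.23 and BAF155 at 2.48. The central genes HOXB6 and HOXB8 had BRG1 folds of 3.39 and 3.31 and BAF155 folds of 2.79 and 3.71. HOXD9 was near the threshold in both lists, at folds of 2.79 and 2.72.

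Both primed-only genes rest on 1 BAF155 peak. HOXA2, which patterns the hindbrain and the second branchial arch, had a peak of 1067 bases at a fold of 3.02, with its midpoint 3 bases from the start, and HOXC8 had one at a fold of 3.06, 392 bases from the start. HOXB13, HOXC6 and HOXD4 had no promoter peak in any of the lists. None of these 3 has a CpG-rich promoter by the values above, but other HOX genes without one, such as HOXB1 and HOXB2, did have promoter peaks. HOXB13, a gene of the tail end and the prostate, lies apart from the rest of its cluster.

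The genes called in both states took their highest primed BAF155 folds at HOXA10 (4.36), HOXB1 (4.03), HOXB5 (3.79), HOXA5 (3.68), HOXD8 (3.65) and HOXB7 (3.60). Their naïve BAF155 folds were 2.77, 2.72, 2.66, 2.54, 3.21 and 2.89 in the same order. Folds of different libraries depend on their enrichment and depth, so these pairs are given as values and no difference was tested. These genes were picked by their primed fold, so lower naïve folds among them follow in part from that choice. HOXA9 had the reverse order of values, with naïve BRG1 at 4.34, naïve BAF155 at 3.71 and primed BAF155 at 3.00. Naïve BAF155 was also above primed at HOXB4 (3.54 and 2.74), HOXB3 (3.54 and 3.12), HOXB9 (3.11 and 2.83), HOXD11 (3.05 and 2.84) and HOXD13 (3.01 and 2.81). The remaining genes with BAF155 in both states had the higher primed value when the highest fold of each gene was taken.

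By position in the cluster, the 11 anterior genes had 8 with naïve BRG1, 9 with naïve BAF155 and 8 with primed BAF155. The 11 central genes had 9, 8 and 6, and the 16 posterior genes 15, 12 and 11. BRM was called at 5 of the posterior genes, at 0 of the central and at 2 of the anterior ones. The naïve-only genes were 2 anterior, 4 central and 4 posterior. No gradient along the clusters can be read from counts of this size.

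The primed BAF155 calls without a BRG1 call were set beside genes with BAF155 peaks of like fold. Over all protein-coding genes with a primed BAF155 promoter peak, 46.3% also had BRG1, against 0 of the 25 HOX genes. Among the 12970 genes whose highest BAF155 fold lay inside the HOX range it was 43.9%, and among the 4672 genes at or below the HOX median fold it was 17.1%. In naïve cells 28 of the 29 HOX genes with BAF155 also had BRG1, against 90.8%. Of the 32 HOX genes with naïve BRG1, 0 kept a BRG1 call in primed cells, against 47.8% of all such genes. Widening the promoter to 2 kb left the primed BRG1 count at 0, against 35.3% of all genes.

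The same comparison over peaks used the 4 windows, which span 200 kb for HOXA, 300 kb for HOXB, 217 kb for HOXC and 198 kb for HOXD. BRG1 overlapped 12 of the 91 primed BAF155 peaks in the windows (13.2%, 7.0% to 21.9%), against 24.9% of BAF155 peaks in the genome. Between the first and last member it overlapped 5 of 63 (7.94%, 2.63% to 17.6%). An overlap is at least 25% of either peak. In naïve cells 57 of 71 BAF155 peaks carried BRG1 (80.3%, 69.1% to 88.8%), against 66.4%. Split by fold, the primed windows had BRG1 at 0 of 34 BAF155 peaks with a fold of 2.5 to 3 (genome 3.89%), at 2 of 33 from 3 to 3.5 (16.6%), at 4 of 15 from 3.5 to 4 (34.8%), at 3 of 6 from 4 to 5 (53.9%) and at all 3 above 5 (85.0%). Thus the primed BAF155 peaks above a fold of 5 did carry BRG1, and below that fold the window shares were under those of the genome. The counts per class are small and no interval was taken for them. The 24.9% of the genome is not matched for fold, so a gap at like fold may lie within counting error. The strongest primed BAF155 peaks at HOX promoters, at HOXA10 (4.36) and HOXB1 (4.03), carried none.

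**Figure D3:**
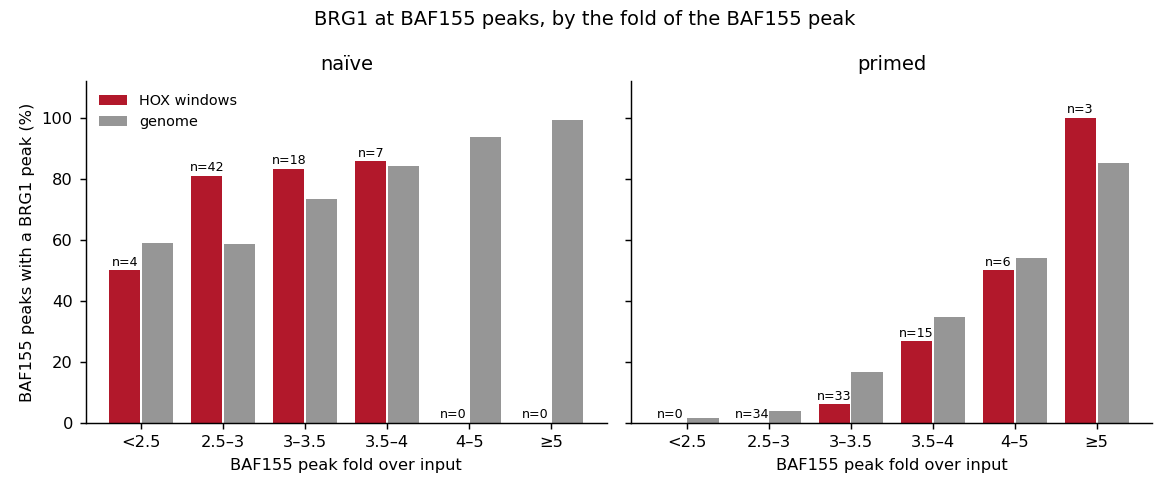
Percent of BAF155 peaks that overlap a BRG1 peak, by the fold of the BAF155 peak, in naïve (left) and primed (right) hESCs, for peaks in the 4 HOX windows (red, number of peaks above each bar) and in the genome (grey). In primed cells both rise with fold, and the red bars stay below the grey ones up to a fold of 5. In naïve cells the red bars stand above from 2.5 to 4.

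The 12 primed BRG1 peaks in the windows lay away from the HOX starts. Their midpoints fell at 1 promoter of another gene, in 3 exons, in 2 introns and in 6 intergenic stretches, and all 12 overlapped a primed BAF155 peak. The nearest to a HOX start was the peak between HOXD13 and HOXD12, at chr2:176097111-176097712 (fold 3.99), 2.38 kb from the HOXD12 start. In HOXB the highest was chr17:48636591-48636746 (fold 3.94), 3.10 kb from a HOXB7 start. HOXA had its highest at chr7:27214736-27214883 (fold 3.88), 14.7 kb from HOXA13, and HOXC its single one at chr12:54076081-54076260 (fold 3.88), 22.3 kb from a HOXC4 start. At least 1 SOX2 peak lay on 6 of the 12, against 24.5% of primed BRG1 peaks in the genome.

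Counted over their length, HOXA, HOXB and HOXD were densely covered by primed BAF155 and HOXC was not. Primed BAF155 peaks covered 11.7% of the HOXA window, 9.61% of HOXB, 9.94% of HOXD and 2.23% of HOXC, against 1.41% of the genome. To set this beside other gene-rich DNA, the genome was cut into tiles of 250 kb, of which 451 held at least 8 protein-coding genes and had a median of 3.95% covered. Only 2 of these tiles reached the HOXA value, 10 the HOXB value and 8 the HOXD value, whereas 350 reached that of HOXC. Over all 12342 tiles, 6 reached the HOXA value. The windows are of other lengths than the tiles, so this is a description.

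The naïve lists did not single the clusters out in this way. Naïve BRG1 covered 5.79% of HOXA, 7.49% of HOXB, 2.99% of HOXC and 7.55% of HOXD, with a median of 4.64% in gene-dense tiles, and between 116 and 307 of the 451 tiles reached these values. Naïve BAF155 covered 3.86%, 5.34%, 3.05% and 4.78%, with a median of 5.31%. Primed BRG1 covered 0.186%, 0.432%, 0.0829% and 1.17%, with a median of 0.457%. HOXC had the lowest share of the 4 windows in each of these lists. Primed BAF155 peaks in the windows were also wide, with a median of 691 bases, against 507 in the whole list, and the widest, at chr17:48546509-48549517 over the 3′ end of HOXB3, spanned 3009 bases at a fold of 2.78.

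**Figure D4:**
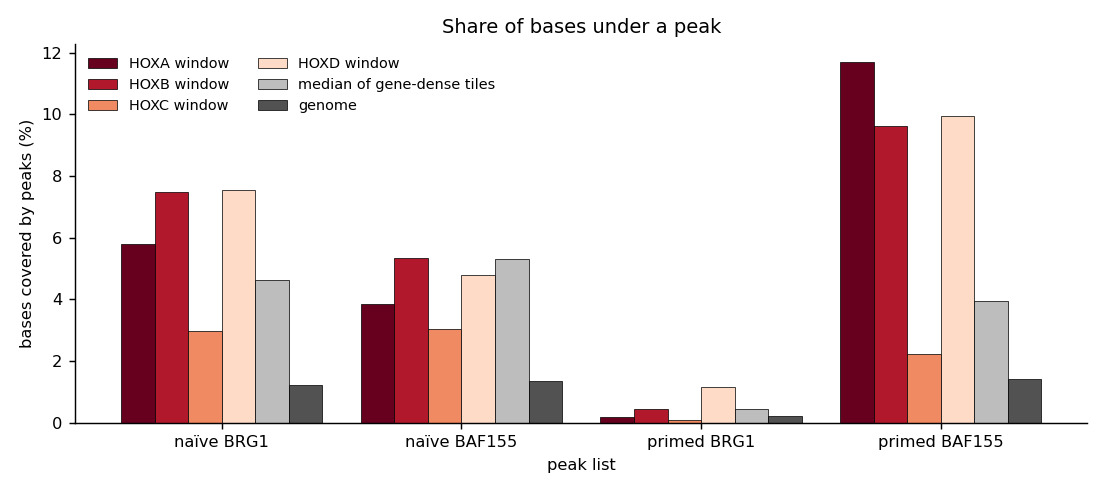
Percent of bases under a peak of 4 BAF lists in each HOX window (reds), with the median of 451 gene-dense tiles of 250 kb (light grey) and the whole genome (dark grey). For primed BAF155 the HOXA, HOXB and HOXD bars reach 9.61% to 11.7% above a tile median of 3.95%, and HOXC stands at 2.23%.

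By number, the windows held 90 naïve BRG1, 71 naïve BAF155, 13 naïve BRM, 12 primed BRG1, 91 primed BAF155 and 14 primed SOX2 peaks, and 0 of naïve SOX2 and of primed BRM. Per 100 kb this was 9.83, 7.76, 1.42, 1.31, 9.94 and 1.53 in that order, against 1.87, 2.02, 0.564, 0.505, 1.89 and 0.301 in the genome. The genome rates are not matched for gene density. For naïve SOX2 and primed BRM they were 0.0628 and 0.00541, so a count of 0 says little. Midpoints fell within 1 kb of a transcript start for 49 of the 90 naïve BRG1 peaks, 41 of the 71 naïve BAF155 peaks and 50 of the 91 primed BAF155 peaks. Their median folds of 2.95, 2.85 and 3.12 lay close to the medians of their whole lists, 2.93, 2.89 and 3.28.

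BAF regions, merged from BRG1 and BAF155, had a larger share in common between the states in the windows than in the genome as deposited, but not under every rule. Of 103 naïve regions 61 overlapped a primed one (59.2%, 49.1% to 68.8%), against 37.4% in the genome, and of 91 primed regions 59 overlapped a naïve one (64.8%, 54.1% to 74.6%), against 48.2%. Regions within 1 kb of a transcript start had shares of 67.3% in the windows and 69.4% in the genome for naïve, and of 66.0% and 76.8% for primed, so at promoters the windows did not stand above the genome. With a −log10 q of at least 3 the naïve share was 23.1% in the windows and 36.9% in the genome, and with BRG1 alone it was 7.78% and 17.4%, so the order turned, while an overlap of 50% of both regions gave 28.2% and 20.7%. The primed share turned in the same way, to 21.4% and 31.5% with that q limit and to 58.3% and 66.2% with BRG1 alone, and a fold of at least 4 put both states slightly below the genome. HOXC kept 6 of 18 naïve regions (33.3%), and HOXD 17 of 23 (73.9%).

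**Figure D5:**
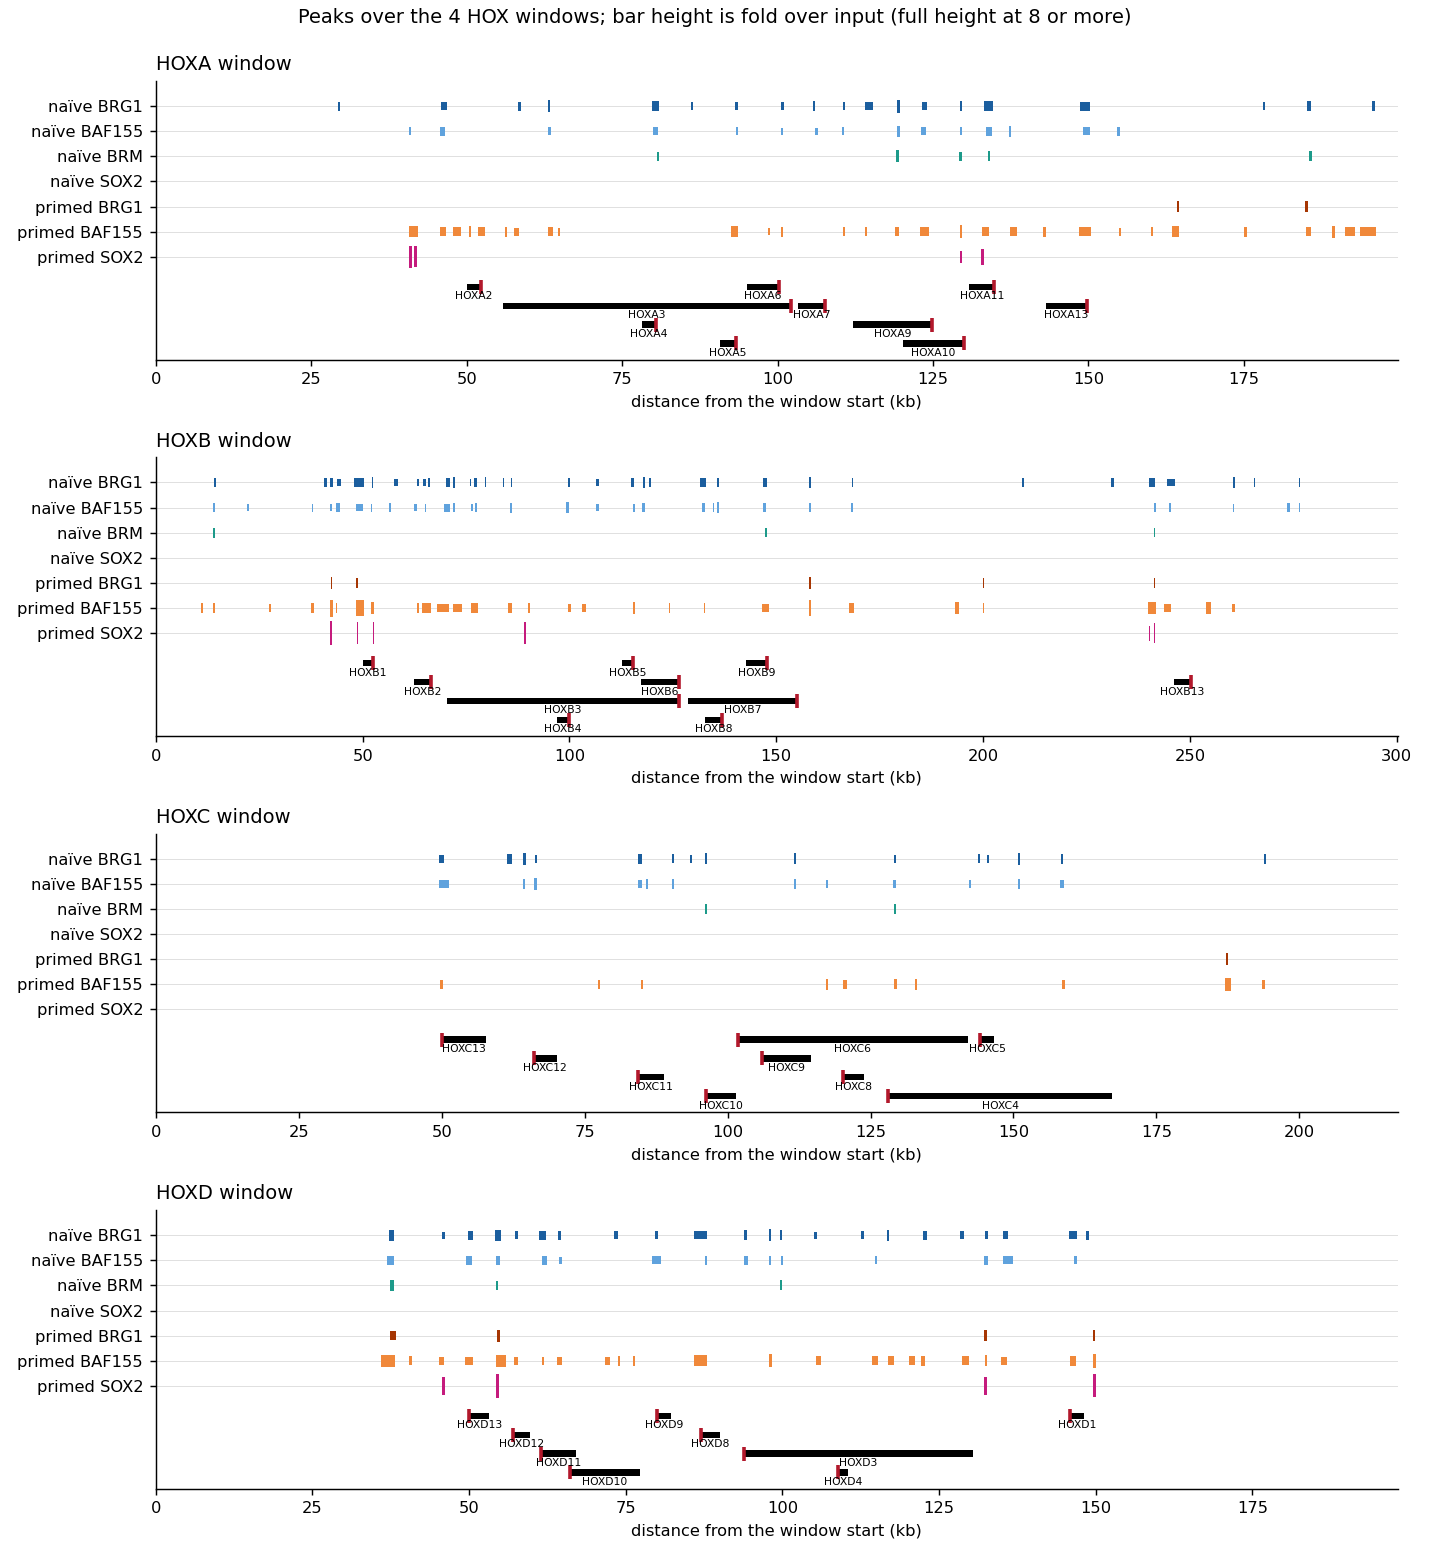
Peaks of 7 lists over the HOXA, HOXB, HOXC and HOXD windows, with distance from the window start in kb on the x axis, bar height as fold (full at 8) and HOX genes as black bars with a red tick at the start. Primed BAF155 forms dense runs over HOXA, HOXB and HOXD but not HOXC, and the 12 primed BRG1 peaks stand between or outside the genes.

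Among the strongest peaks, naïve BRG1, BAF155 and BRM all had their HOXA maximum at MIR196B, whose seed is printed above, at an upstream start of HOXA9. The BRG1 peak lay at chr7:27169552-27170021 with a fold of 4.34, the BAF155 peak at chr7:27169496-27170058 with a fold of 3.71 and the BRM peak at chr7:27169554-27169713 with a fold of 4.04. Primed BAF155 covered the place at a fold of 2.86, below most primed promoter folds of the family. In HOXD naïve BRG1 was highest in an intron of HOXD3, at chr2:176140618-176140909 (fold 4.06), where primed BAF155 also had a peak, at a fold of 4.48. In HOXC the highest naïve BRG1 peak lay 1.58 kb from the HOXC12 start, at chr12:53953007-53953646 (fold 4.17), and in HOXB in an exon 3.19 kb from a HOXB3 start, at chr17:48550477-48550977 (fold 3.79).

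The highest naïve BAF155 peaks of the other clusters were at HOXB8, at chr17:48614339-48614566 (fold 3.71), at the HOXC12 start, at chr12:53954894-53955495 (fold 3.89), and 12.5 kb from HOXD13 in an exon, at chr2:176079687-176080748 (fold 3.22). The last place, which lies in the neighbouring gene EVX2, also had the highest BRM peak of HOXD, at chr2:176080086-176080786 (fold 3.48), and a primed BRG1 peak at a fold of 3.22. Primed BAF155 was highest at HOXA10 in HOXA, 9.97 kb from HOXB1 in HOXB, 22.6 kb from a HOXC4 start in HOXC, at chr12:54075909-54076937 (fold 4.16), and 3.90 kb from the HOXD1 start in HOXD, at chr2:176192318-176192818 (fold 4.67). In HOXB, HOXC and HOXD these places carried a primed BRG1 peak too, and in HOXA, HOXB and HOXD a SOX2 peak.

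BRM was found at 13 places in the naïve windows and at all 13 a naïve BRG1 or BAF155 peak was present, against 94.3% of naïve BRM peaks in the genome. The highest in HOXB lay outside the genes, at chr17:48492495-48492752 (fold 3.42). Of the 7 promoter calls 3 were in posterior HOXA, with folds of 4.04 at HOXA9, 3.07 at HOXA10 and 3.27 at HOXA11. Single calls were found at HOXB9 (2.91), HOXC10 (3.23), HOXC4 (3.24) and HOXA4 (2.97), and none in HOXD. Among HOX genes with a naïve BAF peak BRM was called at 7 of 33 (21.2%), against 30.9% of all such genes, so HOX promoters were not rich in BRM calls. At 9 of the 13 places primed BAF155 had a peak, and at 3 primed BRG1.

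SOX2 peaks were present in the windows in primed cells alone, 14 in all, with 4 in HOXA, 6 in HOXB, 4 in HOXD and 0 in HOXC. The primed list is the longer one, and with both lists cut to the 1940 peaks of highest fold 2 primed peaks were left in the windows against 0 naïve ones. The naïve list has 0.0628 peaks per 100 kb of genome, so its 0 here is not read as a difference between the states. Of the 14, 13 overlapped primed BAF155 (92.9%, against 88.4% of primed SOX2 peaks in the genome), 6 primed BRG1 (42.9%, against 41.9%) and 9 a naïve BAF region (64.3%, against 41.7%). SOX2 sites in the clusters thus carried primed BAF at close to the rate of SOX2 sites elsewhere.

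HOXB1, the most anterior gene of its cluster and an early target of retinoic acid in the hindbrain, had 3 SOX2 peaks around it. The strongest, at chr17:48520725-48521092, had a fold of 13.1 and rank 773 in the list, and lay 10.0 kb 3′ of the start, under the highest primed BAF155 peak of all windows (fold 5.72) and a primed BRG1 peak (fold 3.77). The next, at chr17:48527095-48527369, had a fold of 7.35 and lay 3.68 kb from the start, with primed BAF155 at 5.25 and primed BRG1 at 3.59. The peak at chr17:48531004-48531276, with a fold of 7.15 and its midpoint 129 bases from the start, is the one over the promoter sequence printed above. Under the overlap rule given above, it overlapped primed BAF155 (fold 4.03) but neither BRG1 nor a naïve BAF peak. The HOXB1 promoter itself did have naïve BRG1 (fold 3.43) and naïve BAF155 (fold 2.72) peaks. The naïve BRG1 peak, at chr17:48530755-48531022, shared its edge with the SOX2 peak but fell short of that rule.

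Elsewhere in HOXB, a peak at chr17:48567695-48567936 in an intron of HOXB3 (fold 7.32) was the only one of the 14 without a BAF155 peak of either state. A pair 3′ of HOXB13 lay at chr17:48718617-48718841 (fold 5.02) and chr17:48719879-48720175 (fold 6.69), and the second carried naïve and primed BRG1, naïve and primed BAF155 and naïve BRM. In HOXD the peak 5′ of HOXD12, at chr2:176096994-176097478, had a fold of 10.1 and carried the same 5. The peak 3′ of HOXD1, at chr2:176192417-176192655 (fold 7.71), carried primed BRG1 and BAF155 and no naïve BAF. The others were at chr2:176174880-176175374, 3′ of HOXD3 (fold 5.84), and at chr2:176088519-176088740, 4.09 kb from HOXD13 (fold 5.99).

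HOXA had SOX2 at the 5′ start of HOXA10, at chr7:27179679-27179914 with the lowest fold of the 14, 3.96, together with naïve BRG1, BAF155 and BRM and primed BAF155 (fold 4.36). A further one lay in an intron of HOXA11, at chr7:27183183-27183450 (fold 5.41). The other 2, with folds of 7.32 and 7.10, lay 11.4 and 10.6 kb from the HOXA2 start on its 3′ side.

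Within 50 bases of the summit, 7 of the 14 SOX2 peaks held a SOX core (50.0%), against 43.8% of all 9290 primed peaks. The core followed by any base and ATG, an arrangement that resembles the paired SOX2 and OCT4 site and that was chosen after these sequences had been read, was found at 3 of the 14 (21.4%), against 3.77% of all primed and 5.93% of all naïve SOX2 peaks. These are the sites at the HOXB1 promoter, 3′ of HOXB13 and 3′ of HOXD1 printed at the start. A match is a description of letters and not evidence that a factor is bound there.

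Motifs were also counted in the BAF peaks and promoters, on both strands. The PBX-HOX motif TGATTNAT, an idealised site of HOX proteins with their PBX partners, was in the central 200 bases of 5 of the 91 primed BAF155 peaks (5.49%, against 2.48% of the list), of 5.56% of the naïve BRG1 peaks (1.59% of the list) and of 1 of the 71 naïve BAF155 peaks (1.41%, against 1.68%). RefSeq promoters of 300 bases were matched for 20 of the 38 genes, with 27 promoters. The SOX core was in 22.2% of them (24.5% of all 35116 promoters), TGATTNAT in 7.41% (2.82%) and the CTCF core CCANNAGGG in 3.70% (6.44%). These counts are small, and 7.41% stands for 2 promoters.

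Other genes of the HOX system were read through the same lists, for which the shares over all protein-coding genes are 66.8% for naïve BRG1, 67.0% for naïve BAF155, 22.6% for naïve BRM, 72.7% for primed BAF155, 33.8% for primed BRG1 and 5.62% for primed SOX2. Of 9 HOX cofactors of the PBX, MEIS and PKNOX families, which bind DNA together with HOX proteins, naïve BRG1 was called at 9, naïve BAF155 at 8, naïve BRM at 3, primed BAF155 at 9, primed BRG1 at 3 and primed SOX2 at 3. MEIS2 had primed BRG1 at a fold of 3.73 and SOX2 at 7.71, MEIS1 had them at 3.78 and 7.06, and PKNOX2 had SOX2 at 9.76 without BRG1.

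Of 13 homeobox genes related to HOX, naïve BRG1 was called at 8, naïve BAF155 at 7, naïve BRM at 2, primed BAF155 at 10, primed BRG1 at 5 and primed SOX2 at 1. The 1 with SOX2 was CDX2, a regulator of posterior HOX genes and of trophectoderm, with a fold of 35.7 together with primed BRG1 at 3.48. GSX1, a neural gene of the ParaHOX cluster, had the highest BAF folds of these lists, with naïve BRG1 at 5.34 and primed BRG1 at 5.53. EVX1 and EVX2, which adjoin HOXA and HOXD, had promoter primed BAF155 at 3.10 and 2.86 and no promoter primed BRG1 peak, although the primed BRG1 peak described above lies inside EVX2.

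The 10 genes of retinoic acid signalling, receptors with the enzymes that make or degrade the ligand, had naïve BRG1 at 9, naïve BAF155 at 8, naïve BRM at 4, primed BAF155 at 9, primed BRG1 at 5 and SOX2 at 0. With primed BRG1 at 3 of 9, 5 of 13 and 5 of 10 genes, the first and the second list lay near the share of all genes and the third above it, with no test made. The 16 noncoding genes inside the clusters had naïve BRG1 at 11, naïve BAF155 at 10, naïve BRM at 2, primed BAF155 at 8 and primed BRG1 at 0, and they share promoters with the HOX genes. HOTTIP, the noncoding RNA beside HOXA13, had naïve BRG1 at 3.06 and primed BAF155 at 2.92, and HOTAIR in HOXC had 3.37 and 3.06.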

How the data were processed

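ChIP-seq peak lists of WIBR3 hESCs were used: 10 samples with a list and 4 inputs, which served as controls for peak calling and were not used here. Per the labels, reads were mapped to hg38 with Bowtie2 2.3.4 and handled with SAMtools 0.1.19 and FastQC 0.10.1. The study's methods state trimming, removal of duplicates and MACS2 against input, with narrow peaks for SOX2 (paired-end reads) and broad peaks for the BAF subunits (single-end reads). The deposited lists give positions and, for 7 of them, the score of the authors' caller, a linear fold over input, and p-value and q-value as −log10. Primed BRM and the second SOX2 lists give positions alone. The deposited score was not used.

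Peaks on the autosomes, X and Y were set against GENCODE 44 transcript starts in Python 3.11.15 (numpy 2.4.6, scipy 1.17.1), and the promoter calls were checked on simulated peaks. A peak was placed by its midpoint. Shares carry exact binomial intervals. No test was made, since each group has 1 list, and the depth of the libraries was not used here. Genes named with values are those whose promoter call differs between the states, those with BRM, SOX2 or no promoter peak, every SOX2 peak in a window and the highest peaks of each list and cluster. Other genes were named after their values were seen. The members and the gene lists were chosen with earlier results of these data known. A further HOX gene is not reported here, although peaks beside it count in the HOXA window. Alternatives covered the promoter width and call, the starts used, stricter fold and q limits, equal list lengths, the flanks, the overlap, single subunits and the second SOX2 library.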

Additional observations from a re-analysis of the deposited data

How the results depend on the processing

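Of 181 recomputed values, 114 stayed within 1.5 times the reported count or within its interval. Primed BRG1 was called at 0 HOX promoters under every alternative run, but only the promoter width of 2 kb could have raised that count. Of all genes, 4.27% kept primed BRG1 at a fold of at least 4 and 6.03% at a −log10 q of at least 3. The interval of the HOX count, 0 to 9.25%, includes both shares, so the contrast with all genes rests on the calls below these limits. The alternatives other than that width keep the same primed BRG1 calls or fewer. Promoter widths of 500 bp and 2 kb, the midpoint rule, flanks of 100 kb and an overlap of 1 bp moved no value past that limit. The second SOX2 library could move none, since its lists hold the same coordinates, and its 4 values are among the 114. No paired analysis was possible because the results come from no test and the SOX2 lists that share a replicate number hold the same coordinates. The cause of the shifts below was not tested, except that stricter limits and equal lengths keep fewer peaks by construction. Counts of genes with BAF in both states or in 1 state cover the HOX genes alone, without the share of all genes.

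With 1 canonical start per gene, 4 HOX genes had naïve BRM (also 4 among those with naïve BAF), against 17.4% of all genes. Primed SOX2 was then called at 1, against 3.03%. A fold of at least 4 left naïve BRG1 at 1 promoter with 3 peaks and 0.153% of the windows covered, naïve BAF155 at 0, 0 and 0%, naïve BRM at 1, 1 and 0.0175%, primed BRG1 with 0 peaks and 0%, primed BAF155 at 2, 9 and 0.807% and primed SOX2 at 1 promoter. Of all genes, that fold left naïve BRG1 at 3.04%, naïve BAF155 at 3.26% and naïve BRM at 2.47%. Primed BAF155 was left at 11.4% of all genes and primed SOX2 at 5.29%. HOX genes with BAF in both states fell to 0 and in naïve only to 1, with BRM at 1 HOX gene with naïve BAF. Of naïve BAF regions 33.3% were shared, and of primed ones 11.1%. A −log10 q of at least 3 left naïve BRG1 at 8 promoters, 20 peaks and 1.22%, naïve BAF155 at 7, 15 and 0.710%, naïve BRM at 1, 1 and 0.0175%, primed BRG1 with 3 peaks and 0.120%, primed BAF155 at 7, 28 and 2.45% and primed SOX2 at 1 promoter. Of all genes, that q limit left naïve BRG1 at 22.9%, naïve BAF155 at 25.3% and naïve BRM at 4.71%. Primed BAF155 was left at 40.9% of all genes and primed SOX2 at 5.06%. HOX genes with BAF in both states were then 0 and in primed only 7, with BRM at 1 HOX gene with naïve BAF. The shared shares were 23.1% and 21.4%.

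Equal list lengths left naïve BRG1 at 12 promoters (against 19.3% of all genes), 26 peaks and 1.32%. Primed SOX2 was left at 0 promoters (against 1.03% of all genes), 2 peaks and 0.0932%. There were then 5 primed-only genes, and 53.8% of primed regions were shared. Without flanks, primed BRG1 had 5 peaks and 0.275% covered, and primed SOX2 8 peaks. Asking for 25% of both regions gave shared shares of 48.5% for naïve and 53.8% for primed, and 50% of both gave 28.2% and 31.9%. BRG1 alone put 0 genes in both states, 32 in naïve only and 0 in primed only, with 7.78% of naïve regions shared. BAF155 alone gave 4 primed-only genes and 51.6% of primed regions shared. Asking for BRG1 and BAF155 together gave 0 genes in both states, 28 in naïve only and 0 in primed only.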
